A study of Homo sapiens with 6 samples.

Results

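The 40 genes described here encode proteins that choose and license replication origins, unwind DNA at the fork and copy it. They were taken by gene symbol from a count table of 20030 genes by a fixed list of names, and all 40 were found there. The table holds mRNA sequencing of HepG2 cells, an established hepatoma line, in 2 groups of 3 libraries. The sh-ctrl group carried a control shRNA, and the sh-KIF11 group carried an shRNA against KIF11, the kinesin-5 motor that pushes spindle poles apart in mitosis. Both groups were HepG2 cells that received an shRNA, and the study's methods describe lentiviral delivery with puromycin selection. Its oligonucleotide list names 1 shRNA against KIF11. In the tables the knockdown columns read shRNA with no target, and KIF11 was assigned since no further shRNA besides the control appears in the labels. The study concerned KIF11 in the senescence of hepatoma cells, a lasting exit from the cell cycle.

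Before S phase, the origin recognition complex, CDC6 and CDT1 load the MCM2-7 ring onto DNA, a step called licensing, and geminin binds CDT1 to stop it from happening again in the same cycle. In S phase, CDC45 and the GINS complex join the ring to form the active helicase, and DNA polymerase alpha with primase starts each strand. Polymerases epsilon and delta, tethered by the PCNA clamp, extend the leading and lagging strands. Many of these genes are transcribed in waves through the cell cycle under E2F factors, and their mRNAs are low in cells that have stopped dividing.

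KIF11 mRNA (GRCh38, chr10:92593286-92655395), the target of the knockdown, was lower in the sh-KIF11 libraries. Levels are given as CPM, counts brought to a common library size by the TMM method, which assumes that most genes do not move. KIF11 was at 111, 116 and 121 CPM in sh-ctrl and at 72.2, 71.4 and 62.9 CPM after knockdown. The groups did not overlap (two-sided p = 0.1 in an exact permutation test, which cannot go lower with 3 against 3 libraries), and the log2 fold change was −0.75 ± 0.06, where the error of a log2 fold change is its SE throughout. The libraries held 18167773 to 19583282 counts, and sh-ctrl library 3 stood somewhat apart from the other controls (chi-square per degree of freedom 6.06 and 7.83, against 2.62 to 3.4 for the other pairs within a group). The 10 hepatocyte markers took 3.20% ± 0.07 (SD, n = 3) of all counts in sh-ctrl against 1.68% ± 0.06 in sh-KIF11, and 9 of the 10 were called lower. The part of that shift in the results below was not tested. Leukocyte markers took 0.0079% to 0.0088% of counts in sh-ctrl against 0.0049% to 0.0054% in sh-KIF11, and endothelial and fibroblast markers each took less than 0.001% in every library. The defining markers CD3E, PTPRC, KDR, CDH5, COL1A1, COL1A2, COL3A1 and LUM averaged at most 0.20 CPM in either group, and TEK and DCN had no count.

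With TMM scaling most replication genes were lower after KIF11 knockdown and none was called higher, while 7 were called higher when counts were scaled to library totals alone. Of the 40 members, all of which passed the filter on low counts, 32 fell, 0 rose and 8 did not pass the test (edgeR quasi-likelihood test, Benjamini-Hochberg adjusted p under 0.05). Among all 12369 tested genes, 34.7% were called lower and 34.4% higher. At an unadjusted p under 0.05, 33 members were lower and 0 higher with edgeR, and DESeq2 also called 32 lower and 0 higher. For 33 of the 40 members every sh-KIF11 library lay below every sh-ctrl library, against 35.8% of all tested genes. The falls were moderate, since the median log2 fold change of the members was −0.40, that of all tested genes was 0.00, and no member fell past 2-fold. The members ranged from −0.78 for CDT1 to 0.13 for ORC5. Summed over the 40 genes, the level was 4522 ± 52.1 CPM in sh-ctrl and 3471 ± 91.5 CPM in sh-KIF11 (SD, n = 3), a ratio of 0.77, while the same counts relative to library totals alone had a ratio of 0.90. In bulk RNA, fewer cells that express these genes and less of their mRNA per cell cannot be told apart. Without sh-ctrl library 3 the member median was −0.37 and 31 members were called lower, PCNA being the one lost. Nothing in the labels says that the libraries came from separate cultures, so the p-values measure the spread between libraries, which may be technical.

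The size of the fall depended on how the libraries were scaled. The TMM factors were 0.92 to 0.93 in sh-ctrl and 1.08 to 1.09 in sh-KIF11, and the 20 most abundant genes took 9.50% ± 0.17 of counts in sh-ctrl against 6.99% ± 0.07 in sh-KIF11. When counts were scaled to library totals alone, the median of all tested genes shifted to 0.24, 19.2% of genes were called lower and 53.5% higher, and among the members 20 were called lower and 7 higher. The median of the members was then −0.17, which lay 0.41 below the median of all genes, as with TMM, because a scaling factor moves all genes alike. With limma on the 3 FPKM settings, where 23 members were called lower and 4 higher, the member median lay 0.24 to 0.35 below that of all genes. The members that stayed lower under all 16 alternative settings numbered 20. They were ORC1, CDC6, CDT1, GMNN, MCM2, MCM3, MCM5, MCM6, MCM7, CDC45, GINS2, GINS4, POLD1, POLD2, POLD3, RFC2, RFC5, RPA3, FEN1 and LIG1. Under library totals, MCM10, PRIM1, PRIM2 and PCNA, which were called lower with TMM, had log2 fold changes above 0 (0.0038, 0.0059, 0.0046 and 0.0901) that did not pass the test.

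**Figure D1:**
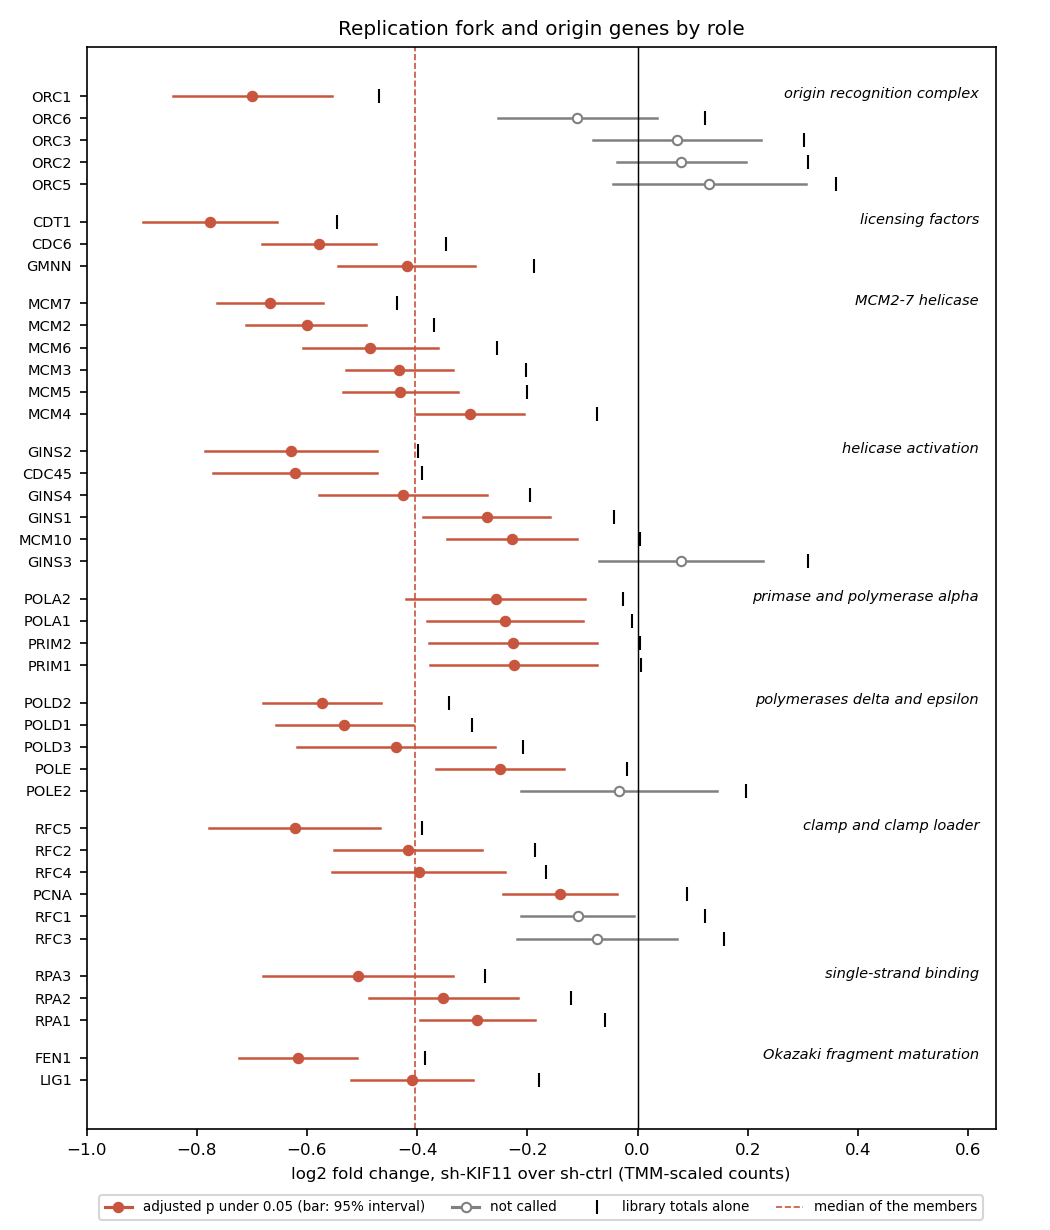
Log2 fold change of each of the 40 members (horizontal axis, sh-KIF11 over sh-ctrl), ordered by role. Circles with 95% intervals are the TMM-scaled edgeR values, filled red for the 32 called lower and open grey for the 8 not called, and black ticks show the value under library totals alone, which lies further right for every gene and on the other side of 0 for MCM10, PRIM1, PRIM2, PCNA, POLE2, RFC1, RFC3 and ORC6.

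E2F letters, which the choice of members did not use, stood in 18 of the 34 members with a promoter window. In the RefSeq promoter table (GRCh38.p14, 250 bases before to 50 bases after each annotated start), 34 of the 40 had a window, and RPA2, RPA3, MCM4, MCM5, POLD3 and GINS4 had none. The E2F letters TTTGGCGC, TTTCGCGC, TTTCCCGC or TTTGCCGC, searched on both strands, were present in 52.9% of the 34, against 3.99% of the 27305 genes with a window and 6.65% of the 9754 tested genes with a window. These stretches of 30 bases are shown because the same letters stood in members that fell and in members that did not. Each is written on the strand of its gene, with the E2F letters, or their reverse complement, in capitals. The first 6 genes were called lower and the last 4 were not called.
CDT1 (chr16:88803743-88803772, plus strand): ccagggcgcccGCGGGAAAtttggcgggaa
CDC6 (chr17:40287875-40287904, plus strand): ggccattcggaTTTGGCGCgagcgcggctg
MCM2 (chr3:127598402-127598431, plus strand): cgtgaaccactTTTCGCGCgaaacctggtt
MCM7 (chr7:100101388-100101417, minus strand): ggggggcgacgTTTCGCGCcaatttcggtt
GINS2 (chr16:85688967-85688996, minus strand): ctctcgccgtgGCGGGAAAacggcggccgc
PCNA (chr20:5126663-5126692, minus strand): cagcgtcagggGCGGGAAAaggcgtgcgtt
ORC3 (chr6:87590112-87590141, plus strand): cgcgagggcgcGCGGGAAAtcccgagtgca
GINS3 (chr16:58392455-58392484, plus strand): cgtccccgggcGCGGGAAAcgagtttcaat
POLE2 (chr14:49688201-49688230, minus strand): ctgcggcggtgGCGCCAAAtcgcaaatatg
RFC3 (chr13:33818083-33818112, plus strand): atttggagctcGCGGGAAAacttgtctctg

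The letters did not separate the members by response. Of the 18 members with E2F letters 14 fell, with a median log2 fold change of −0.34 over the 18, and of the 16 without them 12 fell, again with a median of −0.34. Of the 10 members with the lowest log2 fold change, CDT1, MCM7, GINS2, MCM2 and CDC6 held the letters and ORC1, RFC5, CDC45, FEN1 and POLD2 held none in their windows. In MCM2 the match overlaps its own reverse complement, so TTTCGCGC reads on both strands there. The letters of the CHR element (TTTGAA or TTCGAA, both strands), which binds repressors and activators of late cell cycle genes, were found in 1 member, MCM6. That is 2.94% of the members with a window, against 15.6% of the tested genes with a window. A gene was counted if any of its windows held the letters. CCAAT, the letters read by NF-Y, stood in 61.8% of the members with a window and in 43.4% of such tested genes. A match describes these letters only, and says nothing of whether a factor was bound. Sites with other letters or outside the windows were not searched, so the split cannot tell whether E2F sites go with the response. For 31 of the 34 members with a window, its bases after the start matched a GENCODE transcript of the gene.

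Of the 5 members from the origin recognition complex, 1 fell (20%, beside 34.7% of all tested genes called lower with TMM). The same 34.7% stands beside the counts of members that fell in the other roles below. A further subunit, ORC4, was counted among the other replisome genes and named after its value was seen, and it was not called (−0.13 ± 0.08). ORC1, the subunit that binds origin chromatin through its BAH domain and is itself lost and rebuilt in each cell cycle, was at 47.8, 47.4 and 49.1 CPM in sh-ctrl and at 28.4, 30.7 and 29.8 CPM in sh-KIF11. All 3 knockdown libraries were low and the groups lay far apart, with a log2 fold change of −0.70 ± 0.07 (SE; edgeR, Benjamini-Hochberg adjusted p = 2.18e-11). ORC2, ORC3 and ORC5 belong to the ring of the complex and ORC6 is its small partner. Their log2 fold changes were 0.08, 0.07, 0.13 and −0.11, with 95% intervals that all held 0. ORC2, ORC3 and ORC5 were called higher under library totals (0.31, 0.30 and 0.36), and the value of ORC6 was then 0.12, so their calls, and the direction of ORC6, depended on the scaling, while ORC1 was lower under each setting. Leaving out sh-ctrl library 1 made ORC6 pass as lower (−0.16, edgeR adjusted p = 0.0486).

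All 3 licensing factors fell. CDT1, which brings the MCM ring to the origin, changed most of all 40 members. It was at 110, 99.2 and 92.0 CPM in sh-ctrl and at 59.0, 60.6 and 56.4 CPM in sh-KIF11, with a log2 fold change of −0.78 ± 0.06 (edgeR, Benjamini-Hochberg adjusted p = 7.60e-15). CDC6, the ATPase that closes the loading complex, was at 165, 162 and 177 CPM in sh-ctrl and at 112, 115 and 111 CPM in sh-KIF11, with a log2 fold change of −0.58 ± 0.05. Neither gene had a knockdown library that reached the lowest control. GMNN encodes geminin, the inhibitor of CDT1, and its log2 fold change was −0.42 ± 0.06. It was at 83.4, 92.6 and 104 CPM in sh-ctrl and at 68.9, 72.3 and 67.7 CPM in sh-KIF11, so the control libraries were spread widely but none overlapped the knockdown.

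All 6 subunits of the MCM2-7 ring, the core of the replicative helicase, fell, and their summed level went from 1800 ± 28.2 to 1288 ± 49 CPM (SD, n = 3), a ratio of 0.72. MCM7 had the lowest log2 fold change of the 6, −0.67 ± 0.05 (edgeR, Benjamini-Hochberg adjusted p = 5.96e-16). It was at 429, 412 and 409 CPM in sh-ctrl and at 262, 269 and 256 CPM in sh-KIF11. MCM2, whose tail also binds histones at the fork, was at 291, 264 and 254 CPM in sh-ctrl and at 190, 177 and 167 CPM in sh-KIF11, with a log2 fold change of −0.60 ± 0.05. Both genes were separated between the groups by a wide gap. MCM6, MCM3 and MCM5 followed with −0.49, −0.43 and −0.43, and MCM4 changed least with −0.30 ± 0.05. MCM4 was the only one of the 6 not called under library totals (log2 fold change −0.07).

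**Figure D2:**
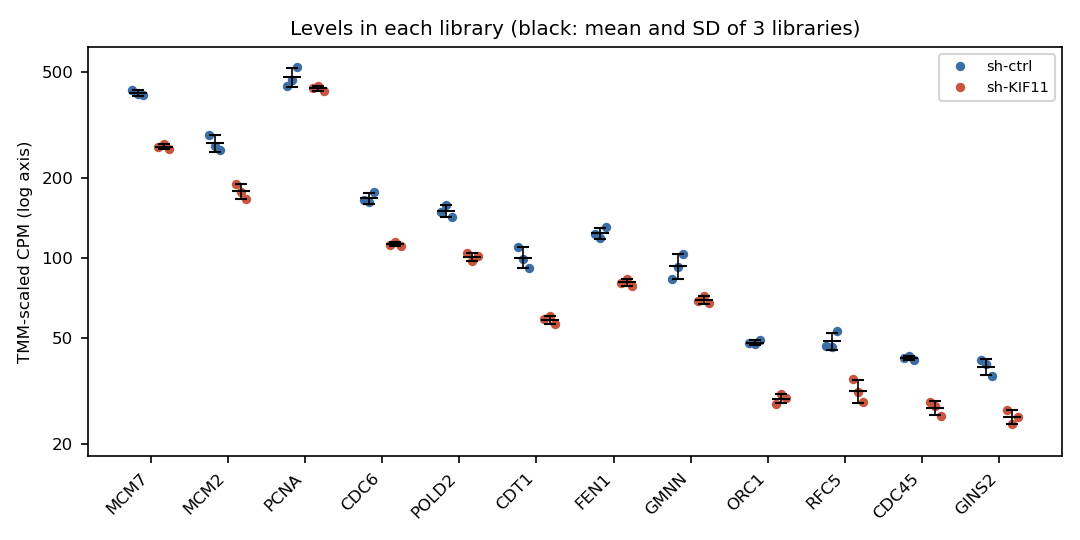
TMM-scaled CPM (log axis) of 12 members in each of the 6 libraries, with blue points for sh-ctrl, red points for sh-KIF11, and the mean and SD of 3 libraries in black. The red points lie below the blue ones for each gene, with the smallest gap for PCNA, where the highest sh-KIF11 value is 443.5 and the lowest sh-ctrl value is 444.1 and where library totals turn the direction.

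Among the factors that turn the loaded ring into an active helicase, 5 of 6 fell. GINS2 and CDC45 had the lowest values. GINS2 was at 41.2, 40.01 and 36.0 CPM in sh-ctrl and at 26.9, 23.8 and 25.2 CPM in sh-KIF11, with a log2 fold change of −0.63 ± 0.08 (edgeR, Benjamini-Hochberg adjusted p = 2.19e-09). CDC45, which with GINS and the MCM ring makes the travelling helicase, was at 42.0, 42.7 and 41.5 CPM in sh-ctrl and at 28.7, 27.8 and 25.5 CPM in sh-KIF11, with a log2 fold change of −0.62 ± 0.07. For both genes all control libraries lay above all knockdown libraries. The other subunits of GINS had log2 fold changes of −0.43 ± 0.08 for GINS4, −0.27 ± 0.06 for GINS1 and 0.08 ± 0.07 for GINS3, which was not called and whose knockdown libraries all lay above the controls. GINS3 was called higher under library totals (0.31) and on log2(FPKM + 1) with limma (0.24). GINS1 was called in neither of these settings (−0.04 and −0.12). Under library totals 3 of the 6 were lower and 1 higher. MCM10, a scaffold at the fork that starts helicase movement, had a log2 fold change of −0.23 ± 0.06 with TMM and 0.00 under library totals.

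The 4 primase and polymerase alpha subunits fell with TMM scaling, with log2 fold changes that ran from −0.26 to −0.23. POLA1, the catalytic subunit of polymerase alpha, POLA2, its partner, and PRIM1 and PRIM2, which lay down the RNA primer, had −0.24, −0.26, −0.23 and −0.23, each with an SE of 0.07 or 0.08. With upper-quartile factors 2 of the 4 were called, and 0 of the 4 passed the test under library totals, where their values ran from −0.03 to 0.01, and the same count of 0 was found on the authors' FPKM values with limma.

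Of the polymerases that extend the strands, all 3 members of delta and 1 of the 2 members of epsilon fell. POLD2, a regulatory subunit of polymerase delta, was at 149, 158 and 143 CPM in sh-ctrl and at 104, 97.2 and 102 CPM in sh-KIF11, with a log2 fold change of −0.57 ± 0.05 (edgeR, Benjamini-Hochberg adjusted p = 9.95e-13). POLD1, the catalytic subunit, and POLD3 had −0.53 ± 0.06 and −0.44 ± 0.09. POLE, the catalytic subunit of the leading strand polymerase, had −0.25 ± 0.06 and was not called under library totals, and POLE2 was not called, with −0.03 ± 0.09 and a 95% interval from −0.21 to 0.14, although it was called higher under library totals (0.20). Further subunits were counted among the other replisome genes and named after their values were seen. With TMM, POLD4 was called higher (0.34 ± 0.11), although its libraries overlapped between the groups. POLE3 and POLE4 were called lower (−0.28 ± 0.05 and −0.58 ± 0.07).

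The clamp and its loader were mixed. PCNA, the ring that tethers polymerases to DNA, was at 444.1, 468 and 522 CPM in sh-ctrl and at 434, 443.5 and 422 CPM in sh-KIF11. Its 2 groups almost touched, and its log2 fold change was −0.14 ± 0.05 (edgeR, Benjamini-Hochberg adjusted p = 0.0146), the closest to 0 among the called members, with values of 0.09 under library totals and 0.04 on log2(FPKM + 1). It also lost its call without sh-ctrl library 3 (−0.08, edgeR adjusted p = 0.0788) and without sh-KIF11 library 3 (−0.12, edgeR adjusted p = 0.0717). The loader is made of RFC1, its large subunit, and 4 small ATPase subunits. RFC5 was at 46.8, 46.5 and 53.0 CPM in sh-ctrl and at 35.0, 31.4 and 28.6 CPM in sh-KIF11, with a log2 fold change of −0.62 ± 0.08, and the groups stood well apart. RFC2 and RFC4 fell by 0.42 and 0.40 on the log2 scale, and RFC4 was not called under library totals (−0.17). RFC1 and RFC3 were not called, with −0.11 ± 0.05 and −0.07 ± 0.07, and both were above 0 under library totals (0.12 and 0.16, each called higher), and RFC1 was called lower without sh-ctrl library 1 (−0.13).

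The single-strand binding complex RPA, which coats unwound DNA, fell in all 3 subunits. RPA1, which makes most contacts with DNA, RPA2, the subunit phosphorylated under replication stress, and RPA3 had log2 fold changes of −0.29 ± 0.05, −0.35 ± 0.07 and −0.51 ± 0.09. Only RPA3 was still called under library totals. FEN1, the nuclease that trims the flap of an Okazaki fragment, was at 123, 119 and 130 CPM in sh-ctrl and at 80.4, 83.5 and 78.8 CPM in sh-KIF11. The knockdown libraries of FEN1 were all low and its log2 fold change was −0.62 ± 0.05 (edgeR, Benjamini-Hochberg adjusted p = 1.86e-13). LIG1, the ligase that seals the nick, had −0.41 ± 0.05.

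Ratios of counts within a library do not depend on any scaling, and in 10 pairs of members the ratio was lower in every sh-KIF11 library than in every sh-ctrl library. The pairs were chosen after the values were seen. In each, the numerator was the member with the lower log2 fold change, so the shared direction follows from that choice. Each pair had a two-sided exact permutation p of 0.1, the floor of this design. It stays 0.1 after Benjamini-Hochberg adjustment over the 10, and it gives no support for the direction. The counts of ORC1 over those of ORC2 were 0.72, 0.65 and 0.70 in sh-ctrl against 0.40, 0.41 and 0.40 in sh-KIF11, so that the ratio fell by 41.8% (from the mean log2 ratios). GINS2 over GINS3 was 1.35, 1.21 and 1.07 in sh-ctrl against 0.79, 0.70 and 0.73 in sh-KIF11. RFC5 over RFC3 went from a mean of 0.91 ± 0.03 to 0.63 ± 0.08 (SD, n = 3). Inside the MCM ring the shifts were smaller, and MCM7 over MCM4 went from 1.18 ± 0.07 to 0.92 ± 0.04. MCM7 over PCNA was 0.97, 0.88 and 0.78 in sh-ctrl against 0.60, 0.61 and 0.61 in sh-KIF11, and POLD1 over POLE2 went from 4.03 ± 0.17 to 2.86 ± 0.20. CDT1 over its inhibitor GMNN was 1.32, 1.07 and 0.89 in sh-ctrl against 0.86, 0.84 and 0.83 in sh-KIF11. The control libraries differed from each other in this last ratio by more than the lowest of them differed from the highest knockdown library, and its change was −21.9%.

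**Figure D3:**
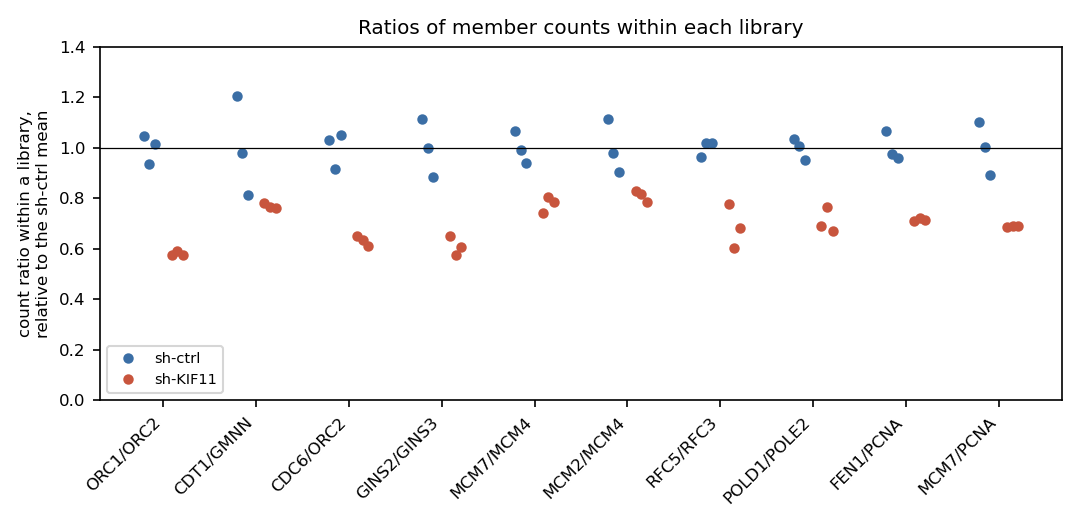
Ratio of the counts of 2 members within each library, divided by the sh-ctrl mean of that ratio (vertical axis, from 0), for 10 pairs. Each point is a library, blue for sh-ctrl and red for sh-KIF11, and all red points lie below all blue points in each pair, with the narrowest gap for CDT1 over GMNN. The pairs, and which member is the numerator, were chosen with the values known.

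Levels can be compared between genes only per transcript length, as in the FPKM values that the authors deposited. On that scale PCNA was far above the rest in sh-ctrl, at 304 ± 21.5 FPKM (SD, n = 3). MCM3 came next with 78.9 ± 1.71, then MCM7 with 63.4 ± 1.15, MCM4 with 57.4 ± 2.0, and MCM5 and MCM2 with 48.2 ± 2.16 and 47.8 ± 3.31, of which the last pair did not differ beyond their spread. MCM6 was the lowest subunit of the ring at 16.7 ± 0.95 FPKM, although the 6 proteins are used in equal number in the helicase. The ratio of the highest to the lowest subunit of the ring was 4.74 ± 0.37 in sh-ctrl and 4.85 ± 0.15 in sh-KIF11, with overlapping libraries. The lowest members were PRIM2, POLD3, POLA1, ORC5 and POLA2, at 3.07, 3.43, 3.66, 3.99 and 4.24 FPKM. In RPA the spread between the highest and the lowest subunit grew from 2.22 ± 0.20 to 2.62 ± 0.05 without overlap, RPA1 being the highest and RPA3 the lowest. The libraries overlapped for the same ratio in the other complexes compared. It was 3.93 and 4.32 in GINS, 3.62 and 3.63 in RFC, and 3.97 and 3.75 in the 5 origin recognition members (sh-ctrl and sh-KIF11). The FPKM values carry no TMM factor, and ORC2, ORC3, ORC5 and GINS3 were higher in all sh-KIF11 libraries on this scale.

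**Figure D4:**
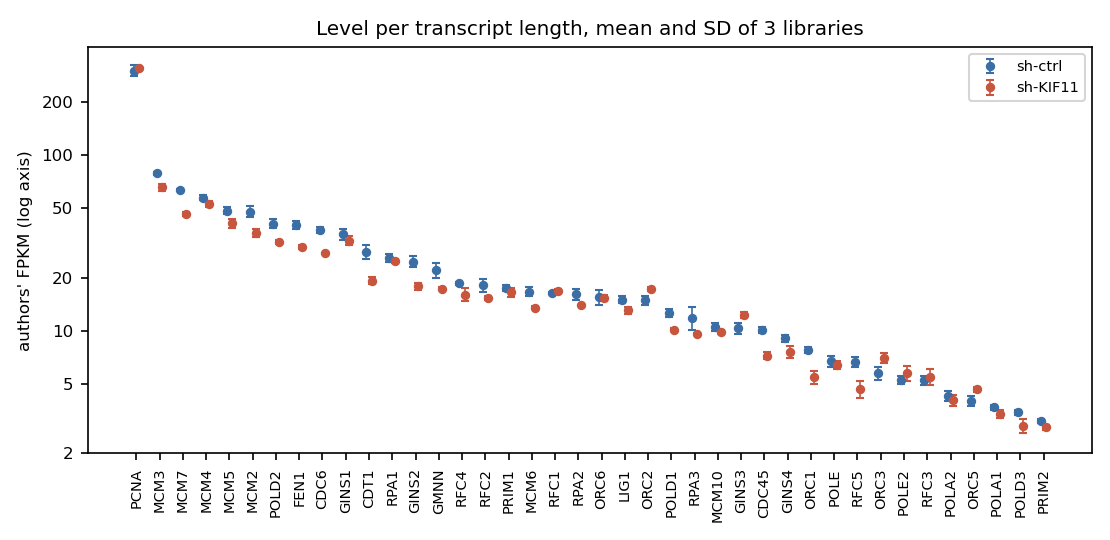
FPKM as deposited by the authors (log axis) of the 40 members in order of their sh-ctrl level, with the mean and SD of 3 libraries in blue for sh-ctrl and in red for sh-KIF11. PCNA stands at 304 in sh-ctrl and 312 in sh-KIF11, with overlapping libraries and a direction opposite to that with TMM scaling, and MCM3, MCM7, MCM4, MCM5 and MCM2 follow.

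Calls among other genes of the same pathways went both ways. Of 30 further replisome genes, such as fork protection, origin firing and histone assembly factors, 10 fell and 8 rose (33.3% and 26.7%, beside 34.7% and 34.4% of all tested genes), with a median log2 fold change of −0.02. Under library totals 8 were lower and 17 higher, beside 19.2% and 53.5% of all tested genes. On log2(FPKM + 1) with limma 8 were lower and 13 higher, beside 15.6% and 36.2%. The same shares of all tested genes stand beside the counts of the lists below. DONSON, which helps to bring GINS to the origin, had −1.65 ± 0.08 (edgeR, Benjamini-Hochberg adjusted p = 8.37e-22), below that of any of the 40 members. RNASEH2A, the catalytic subunit that removes RNA from DNA, and ASF1B, a histone chaperone, had −0.76 and −0.68. Of 12 genes that control licensing, 5 fell and 3 rose (41.7% and 25%), against 4 lower and 6 higher under library totals and 4 and 5 with limma. The largest changes were those of SKP2, which marks CDT1 for degradation, at −0.74, of the phosphatase CDC25A at −0.60 and of the cyclin CCNA2 at −0.52.

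Of 17 E2F, RB and DREAM factors, 6 fell and 4 rose (35.3% and 23.5%, beside 34.7% and 34.4% of all tested genes), with a median of −0.08. Under library totals 2 were lower and 9 higher, beside 19.2% and 53.5% of all tested genes. With limma 3 were lower and 6 higher, beside 15.6% and 36.2%. E2F1, an activator of replication genes, had −0.71 ± 0.06, and E2F7, a repressor, had 0.53 ± 0.08. Their closest relatives were not split in this way. Of 2 further activators, E2F2 was called lower (−0.36 ± 0.07) and E2F3 higher (0.18 ± 0.07). The repressor E2F8 was called lower (−0.35 ± 0.08). All 7 genes of nucleotide supply were called, 6 lower and 1 higher (85.7% and 14.3%, beside 34.7% and 34.4% of all tested genes). Under library totals 4 were lower and 1 higher, and with limma 3 and 1. Thymidine kinase TK1 had −1.01 ± 0.05 and the ribonucleotide reductase subunit RRM2 had −0.74 ± 0.05, while RRM2B, the reductase subunit induced by p53, had 1.49 ± 0.06. Of 20 mitotic genes 16 fell and 2 rose (80% and 10%, beside 34.7% and 34.4% of all tested genes), with a median of −0.48. Under library totals 13 were lower and 4 higher, beside 19.2% and 53.5% of all tested genes. With limma 14 were lower and 3 higher, beside 15.6% and 36.2%. The summed level of the 20 mitotic genes had a ratio of 0.74 between the groups, beside 0.77 for the 40 replication genes. CDC20, AURKB and KIF20A, which act from chromosome separation to cytokinesis, had −0.96, −0.92 and −0.91. Whether the fall of the replication genes is a part of the same shift was not tested.

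Several members share transcribed bases with a neighbour in the GENCODE release 29 annotation (GRCh38). MCM7 (chr7:100092728-100101940, minus strand) shares 392 exon bases with AP4M1 on the other strand, RFC5 (chr12:118013588-118033130) shares 186 with WSB2, FEN1 (chr11:61792637-61797244) shares 166 with TMEM258, and POLA2 (chr11:65261762-65305589) shares 2012 with a gene model on its own strand. GINS4, MCM2 and GINS3 share 1159, 1113 and 558 with antisense gene models, and POLD1 and PRIM1 share 426 and 362 with gene models on their own strand. Further members share shorter stretches. PCNA (chr20:5114953-5126626, minus strand) has 3 pseudogenes named after it and RPA2 also has 3. The library kit keeps strand, but whether the counting used it was not stated, so reads in these stretches are uncertain. CDT1 (chr16:88803213-88809258), CDC6 (chr17:40287633-40304657), ORC1 (chr1:52372829-52404459, minus strand) and CDC45 (chr22:19479459-19520612) share no exon bases with another annotated gene.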

How the data were processed

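Polyadenylated RNA of 6 HepG2 libraries, 3 sh-ctrl and 3 sh-KIF11, was sequenced from a strand-specific kit. The submitters' processing notes name bcl2fastq 1.8.4, Trimmomatic, HISAT2 2.1.0, Cufflinks 2.2.1, HTSeq 0.9.1, DESeq and the build GRCh38, without their roles. The authors deposited a table of whole-number counts per gene and a table of FPKM values, each with annotation columns that were not used. Counts were tested with edgeR 4.0.16 (quasi-likelihood, TMM, filterByExpr, group as the only term, R 4.3.3) over 12369 genes, and 7661 were left out by the filter. Benjamini-Hochberg adjustment ran over all tested genes, with a threshold of 0.05. DESeq2 1.42.0, limma 3.58.1 on log2(FPKM + 1) and log2(FPKM + 0.1), other scalings and filters, a replicate block and the omission of each library were the alternatives. Fits were tested on simulated counts. The 40 members and the other gene lists were chosen with earlier results of these data known. Values in every library were given for KIF11, for CDC6, CDT1, GMNN, MCM2 and PCNA, and for the 10 called members with the lowest log2 fold change. From each other list at most 3 genes with the largest change were named. ORC4, POLD4, POLE3, POLE4, E2F2, E2F3 and E2F8 were named besides, after their values were seen. Promoter letters came from RefSeq and positions from GENCODE.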

Additional observations from a re-analysis of the deposited data

How the results depend on the processing

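Of the 32 members called lower, 20 were called lower under all 16 alternatives. With upper-quartile factors 2 members were called higher and 29 lower, the member median was −0.32, and 3 origin recognition complex members and 2 primase and polymerase alpha members were called. With library totals alone 6621 of all genes were higher and 2373 lower, 7 members were higher and 20 lower, the member median was −0.17, and 4 origin recognition, 0 primase and polymerase alpha and 1 single-strand binding members were called. The higher share of all calls was then 73.6%, against 49.8% with TMM and 58.5% with upper-quartile factors. The direction turned for MCM10 (0.0038), PRIM1 (0.0059), PRIM2 (0.0046), POLE2 (0.20), PCNA (0.0901), RFC1 (0.12) and RFC3 (0.16), and for ORC6 (0.12), which was called in neither. With limma on log2(FPKM + 1), log2(FPKM + 0.1) and log2(FPKM + 1) at a mean FPKM of at least 1, 23 members were lower and 4 higher each time, 2489, 2505 and 2513 of all genes were lower (15.6%, 15.7% and 24.4%) and 5788, 5849 and 4646 higher (36.2%, 36.6% and 45.1%), the member median was −0.19, −0.21 and −0.19, 4 origin recognition and 0 primase and polymerase alpha members were called, and PCNA was at 0.0432, 0.0434 and 0.0432. Nucleotide supply had 4 calls in the first and second of these. The cause of these differences between settings was not tested. Leaving out each library in turn gave a member median of −0.44 to −0.36 and 1 or 2 origin recognition calls, the second without sh-ctrl replicate 1.

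Same-numbered libraries did not deviate together (correlations of 0.03, −0.02 and 0.00 over genes). The numbers thus gave no sign of pairing, although these correlations cannot exclude it. With a replicate block 32 members were lower and 0 higher, and 4311 genes were lower and 4296 higher. With 3 libraries a group, the exact permutation test cannot go below 0.1.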
